A study of Mus musculus with 4 samples.

Results

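The genes described here are 10 components of the microRNA and RNA interference machinery, out of 22739 named genes in the tables: Drosha, Dgcr8, Xpo5, Dicer1, Tarbp2, the Argonautes Ago1, Ago2, Ago3 and Ago4, and Tnrc6a. They were chosen by name, and each was found on 1 row. The tables carry 6 of them under these symbols and list Ago1 to Ago4 as Eif2c1 to Eif2c4. The 4 libraries were made from the mouse embryonic stem (ES) cell line CCE, strain 129SV, kept on gelatin in 15% serum with the cytokine LIF. In 2 of them a short hairpin RNA targeted Tex10 (shTex10), and in the other 2, the controls, it targeted luciferase (shLuci), a firefly gene that mice lack. Both groups therefore carry a hairpin, and short hairpins are themselves handled by part of this machinery (nuclear export, Dicer cleavage and Argonaute loading), so neither group shows the genes without that load. The hairpin sequences, their number and the time after their delivery are not stated in the labels. The series title ties Tex10 to pluripotency, reprogramming and super-enhancers. The comparison asks how the transcripts of the machinery stand when Tex10 is depleted.

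MicroRNAs are cut from long primary transcripts in the nucleus by the Microprocessor, which joins the nuclease Drosha to the RNA-binding protein DGCR8. Exportin-5, the product of Xpo5, carries the resulting hairpin to the cytoplasm, where Dicer with its partner TRBP (Tarbp2) trims it to a short duplex and an Argonaute protein takes up 1 strand. GW182 proteins, among them that of Tnrc6a, bind Argonaute and recruit the enzymes that shorten and decap the target messenger RNA. ES cells that lack Dicer or DGCR8 stay alive but proliferate slowly and differentiate poorly, and the miR-290 and miR-302 families and let-7 are the microRNAs best known for opposing roles in these cells.

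A microRNA finds its targets mainly through its seed, bases 2 to 8. The mature sequences below (RefSeq, build GRCm38.p6, written 5′ to 3′ with the seed in capitals) are given for 2 reasons. The first 4 are shown because they come from a pair of hairpins that lie inside the Dgcr8 transcript itself, one of the 10 genes, which the Microprocessor is known to cut. In the GENCODE M21 annotation miR-3618 falls in an untranslated part of a Dgcr8 exon and miR-1306 in the coding part, both on the minus strand, at chr16:18284562-18284623 and chr16:18284248-18284310 from the first to the last mature base. The others are shown because genes described as their targets are counted further on: 5 belong to the ES cell families and share 1 seed, and the last pair belong to let-7 and share another.
miR-1306-5p: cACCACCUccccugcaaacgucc
miR-1306-3p: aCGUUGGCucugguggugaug
miR-3618-5p: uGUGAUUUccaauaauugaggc
miR-3618-3p: cUACAUUAaugaaaagagcaau
miR-291a-3p: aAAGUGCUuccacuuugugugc
miR-294-3p: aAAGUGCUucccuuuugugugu
miR-295-3p: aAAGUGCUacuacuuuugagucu
miR-302b-3p: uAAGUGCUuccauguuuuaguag
miR-302d-3p: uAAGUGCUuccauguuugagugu
let-7a-5p: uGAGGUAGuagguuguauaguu
let-7g-5p: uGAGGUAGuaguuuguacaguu

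The 10 genes divided into a group that was lower in shTex10 and a group that was not. Of the 9 tested, 6 fell (Drosha, Dgcr8, Xpo5, Dicer1, Ago1 and Ago2), 0 rose and 3 did not pass (Tarbp2, Ago3 and Tnrc6a), in limma, adjusted by Benjamini-Hochberg over all 11883 genes tested. At an unadjusted p under 0.05 the counts were also 6 lower and 0 higher. Ago4 lay under the filter of a mean of 1 FPKM and was not tested. FPKM is the number of fragments per kilobase of transcript, scaled to the mapped fragments of the library, so that levels of different genes can be set side by side. The steepest fall was that of Ago2, to 50.6% of its level in shLuci, and the others that fell kept between 61.9% (Xpo5) and 77.7% (Ago1).

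These counts have to be read against a transcriptome of which a large part differed. Of all tested genes 51.6% passed in either direction, 31.8% as lower (3779) and 19.8% as higher (2350). The median log2 change was -0.48 over the 9 tested components and -0.14 over all genes. The split between higher and lower depended on the scaling: 3234 genes were higher and 1906 lower (16.0% of genes) when libraries were set to an equal sum of named genes, and 655 were higher and 237 lower (1.99%) when set to an equal sum of all rows. Under these scalings 5 and 0 of the components passed as lower, and under quantile normalization 5 (24.4% of all genes). With the equal sum of all rows 1, Ago2, was lower at an unadjusted p under 0.05, and 0 were higher. Each log2 change is shTex10 minus shLuci on the log2(FPKM + 1) scale, where changes of low genes come out too small.

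**Figure D1:**
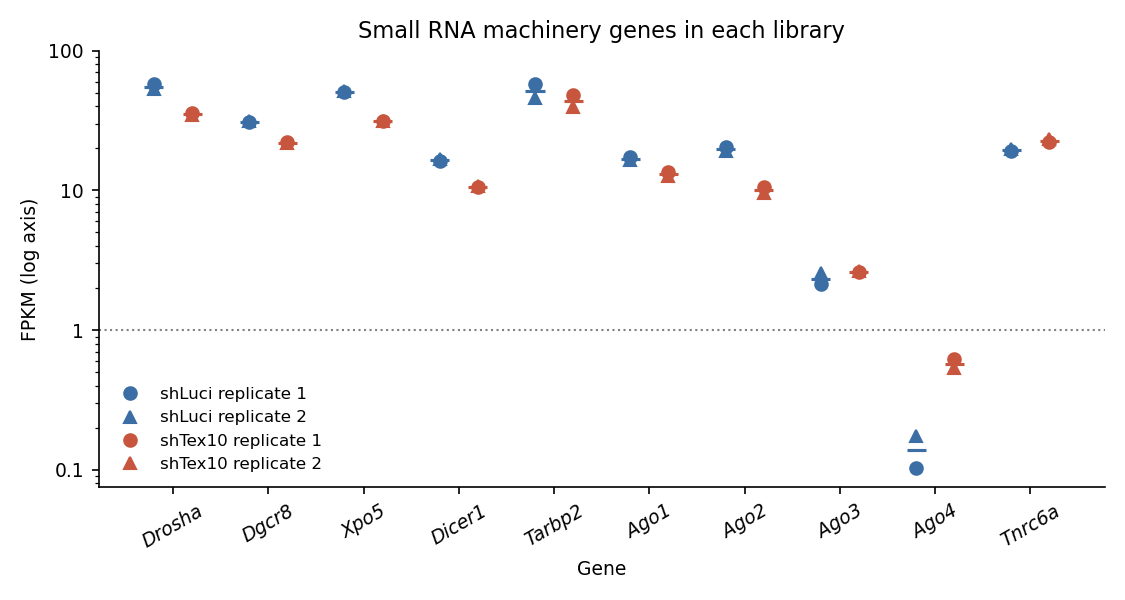
FPKM of the 10 genes (log axis) in each of the 4 libraries, with circles for replicate 1, triangles for replicate 2, short lines for group means and a dotted line at the filter of 1 FPKM. Drosha, Dgcr8, Xpo5, Dicer1, Ago1 and Ago2 sit lower in both shTex10 libraries, Tarbp2 overlaps, and Ago4 lies under 1 FPKM in all 4 libraries.

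Tex10 itself, read first because it checks the labels, measured 77.3 and 82.1 FPKM in shLuci and 11.6 and 13.4 FPKM in shTex10, so that 15.7% remained. Between 11533 and 12003 named genes reached 1 FPKM in each library, and the tables hold no read totals, so the depth behind single values is unknown. All 10 listed ES cell markers (Pou5f1, Nanog and others) were detected in both groups, their summed FPKM being 2889 and 3044 in shLuci and 1886 and 1965 in shTex10, with 7 lower, 0 higher and 3 not past the test (limma, Benjamini-Hochberg). Of the 10 trophoblast markers 8 were tested and all 8 were higher, the sum going from 165 and 167 to 371 and 384 FPKM. Plac1, 1 of these 8, was under the filter in shLuci and was tested because of its shTex10 level (0.841 and 1.02 against 1.88 and 2.32 FPKM), and the neural marker Pax6, called lower, because of its shLuci level. Fibroblast markers summed to between 30.8 and 46.8 FPKM in all libraries, with 1 of 5 tested higher and 1 lower, neural markers to 92.7 and 109 against 45.0 and 54.0 FPKM (1 of 3 higher, 2 lower), and primitive endoderm markers to between 34.6 and 40.9 FPKM (1 of 3 higher, 1 lower). None of these markers was at 0 in all libraries. Their part in the values of the small RNA genes was not tested, and in bulk RNA fewer cells that express a gene cannot be told apart from less RNA per cell.

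Both genes of the Microprocessor fell. Drosha, the nuclease (XLOC_009194, mm9 chr15:12754570-12865046), measured 57.4 and 53.1 FPKM in shLuci and 35.7 and 34.5 FPKM in shTex10. Both shTex10 libraries lay below both shLuci libraries. The means were 55.2 ± 3.06 and 35.1 ± 0.838 FPKM (SD, n = 2 each), which gave a log2 change of -0.64 (SE 0.09; adjusted p = 0.00295 by limma and Benjamini-Hochberg).

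Dgcr8, whose protein recognises the primary transcript (XLOC_010744, mm9 chr16:18248976-18289261), measured 31.0 and 31.3 FPKM in shLuci and 22.2 and 21.8 FPKM in shTex10. The groups were apart and the replicates close together, with means of 31.1 ± 0.206 and 22.0 ± 0.234 FPKM (SD, n = 2 each). The log2 change was -0.48 (SE 0.08; adjusted p = 0.00593 by limma and Benjamini-Hochberg). The row's locus is shared with that of Trmt2a, a tRNA methyltransferase gene that also fell (19.3 and 19.0 against 15.3 and 13.8 FPKM), and no source states whether reads were assigned by strand. Trmt2a lost its call under quantile normalization (adjusted p = 0.0648 from limma), with an equal sum of named genes (0.237) and in 3 of the 4 fits without 1 library.

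Drosha stood above Dgcr8 in every library. Their ratio, which no rescaling of a library can move, was 1.85 and 1.70 in shLuci and 1.61 and 1.58 in shTex10. The ratio was thus lower in both shTex10 libraries, by a gap smaller than the difference between the shLuci replicates. A two-sided exact permutation of the 2 against 2 libraries gave p = 0.33, the smallest possible, here and for each of the 10 ratios, shares and sums reported.

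The starts of both Microprocessor genes and of Xpo5 are shown because these genes fell side by side, and that of Tnrc6a as the component with the largest positive change among those tested. Promoters were in the RefSeq table for 9 of the 10 genes, in the C57BL/6J build GRCm38.p6, and the strain of the cells may differ from it. Each sequence gives the 250 bases before the start, 5′ to 3′ on the gene's strand, at chr15:12824565-12824814 (plus), chr16:18289169-18289418 (minus), chr17:46202561-46202810 (plus) and chr7:123123635-123123884 (plus). Capitals mark matches, on either strand, to 5 motifs: the CCAAT box (CCAAT), the GC box (GGGCGG), the E-box (CACGTG), the ETS core (CCGGAA) and the NRF1 core (GCATGCG). None of the motifs is contained in another, and where matches overlap in a sequence their capitals run together.
Drosha: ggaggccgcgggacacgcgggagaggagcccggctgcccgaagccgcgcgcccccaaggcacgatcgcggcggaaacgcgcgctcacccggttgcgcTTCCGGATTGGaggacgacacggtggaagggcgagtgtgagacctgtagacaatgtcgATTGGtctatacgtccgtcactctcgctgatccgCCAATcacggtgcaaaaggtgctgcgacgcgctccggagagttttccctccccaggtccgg
Dgcr8: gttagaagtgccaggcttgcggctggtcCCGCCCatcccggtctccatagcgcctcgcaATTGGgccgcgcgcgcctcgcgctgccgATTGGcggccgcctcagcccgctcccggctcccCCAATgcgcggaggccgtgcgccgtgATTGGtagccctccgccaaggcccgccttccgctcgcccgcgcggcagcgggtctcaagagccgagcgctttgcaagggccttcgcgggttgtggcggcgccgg
Xpo5: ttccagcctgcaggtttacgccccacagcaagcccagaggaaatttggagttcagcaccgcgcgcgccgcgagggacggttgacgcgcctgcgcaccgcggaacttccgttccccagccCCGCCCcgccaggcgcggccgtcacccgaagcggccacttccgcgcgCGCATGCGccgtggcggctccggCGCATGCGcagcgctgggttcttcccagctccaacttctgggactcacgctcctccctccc
Tnrc6a: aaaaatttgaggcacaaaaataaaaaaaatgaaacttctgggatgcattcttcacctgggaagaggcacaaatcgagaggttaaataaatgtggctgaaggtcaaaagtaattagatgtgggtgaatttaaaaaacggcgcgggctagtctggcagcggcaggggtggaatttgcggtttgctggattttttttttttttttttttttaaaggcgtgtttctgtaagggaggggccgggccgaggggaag

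The windows of Drosha and Dgcr8 held 3 and 4 CCAAT boxes. In Drosha they began 147, 95 and 61 bases before the start, the first running on from an ETS core, and in Dgcr8 191, 163, 130 and 104 bases before it. Xpo5 held the NRF1 core at 2 places, each on both strands with matches 1 base apart, beginning 84 and 61 bases before the start, and 1 GC box, whereas the Tnrc6a window held 0 matches. Other components that did not pass as lower held matches as well: Tarbp2 3 CCAAT boxes, 3 GC boxes and 1 NRF1 core, and Ago3 4 GC boxes and 1 ETS core. The untested Ago4 held 5 GC boxes. Among those that fell, Dicer1 held 1 CCAAT box and 1 GC box, and each Ago1 window 1 CCAAT box and 2 GC boxes. Across the 9 genes, 5 had a CCAAT box (33.8% of 32817 RefSeq promoter windows of this length had one), 7 a GC box (32.7%), 2 an ETS core (12.0%), 2 the NRF1 core (3.01%) and 0 an E-box (6.02%). The GC content of the windows ranged from 42.4% (Tnrc6a) to 85.6% (Ago4), against a median of 52.4% over all promoters, and motif shares move with base composition. These are matches of letters, with no measure of binding.

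Xpo5, the gene of exportin-5 (XLOC_011755, mm9 chr17:46339705-46384994), had the smallest difference between replicates relative to its level in both groups. It measured 50.7 and 51.1 FPKM in shLuci and 31.4 and 31.6 FPKM in shTex10. The means were 50.9 ± 0.266 and 31.5 ± 0.141 FPKM (SD, n = 2 each). This was a log2 change of -0.67 (SE 0.08; adjusted p = 0.00194 by limma and Benjamini-Hochberg), and only 10.1% of tested genes had a lower change. Its locus is shared with Polr1c, a subunit gene of RNA polymerases I and III, at 154 and 135 FPKM in shLuci and 88.9 and 81.1 FPKM in shTex10 (log2 change -0.76, SE 0.11). Without knowledge of strand, reads from overlapping parts of the 2 genes cannot be told apart. A microRNA row in the same locus, Mir693, was listed at 0 in all 4 libraries.

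In the cytoplasmic step the nuclease gene fell and the test did not call its partner. Dicer1 (XLOC_006134, mm9 chr12:105925565-105990170) measured 16.3 and 16.7 FPKM in shLuci and 10.5 and 10.8 FPKM in shTex10. The groups did not overlap, and the means were 16.5 ± 0.328 and 10.7 ± 0.190 FPKM (SD, n = 2 each). This was a log2 change of -0.59 (SE 0.09; adjusted p = 0.00352 by limma and Benjamini-Hochberg). Tarbp2 (XLOC_009544, mm9 chr15:102348623-102354107) measured 57.4 and 45.7 FPKM in shLuci and 48.3 and 39.7 FPKM in shTex10. Here the groups overlapped, and replicate 1 was the higher library in both. The log2 change was -0.22 (SE 0.15; adjusted p = 0.260 by limma and Benjamini-Hochberg), and it was 0.00 with an equal sum of named genes.

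Within each library Tarbp2 was the more abundant of the pair. The ratio of Tarbp2 to Dicer1 was 3.53 and 2.73 in shLuci and 4.59 and 3.68 in shTex10, higher in both shTex10 libraries. The ratio of Xpo5 to Dicer1, 3.12 and 3.06 against 2.99 and 2.93, moved by much less.

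The Argonautes, which hold the guide strand, differed among themselves. Ago2 encodes the only mammalian Argonaute generally credited with efficient slicing of a fully matched target, the activity that hairpin knockdown relies on. It lies on chromosome 15 (XLOC_009713, mm9 chr15:72926276-73015377). It measured 20.3 and 19.3 FPKM in shLuci and 10.5 and 9.52 FPKM in shTex10. Both shTex10 libraries lay well below both shLuci libraries, with means of 19.8 ± 0.732 and 10.0 ± 0.712 FPKM (SD, n = 2 each). The log2 change was -0.92 (SE 0.10; adjusted p = 0.00122 by limma and Benjamini-Hochberg), and 4.02% of tested genes had a lower one.

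Ago1, Ago3 and Ago4 lie beside each other on chromosome 4. Ago1 (XLOC_019536, mm9 chr4:126109057-126145926) measured 17.3 and 16.5 FPKM in shLuci and 13.4 and 12.8 FPKM in shTex10. It was lower in both shTex10 libraries, with a log2 change of -0.34 (SE 0.09; adjusted p = 0.0234 by limma and Benjamini-Hochberg). This call was the least firm of the 6: it was lost without any 1 of the 4 libraries (adjusted p between 0.0561 and 0.133), under quantile normalization (0.0757) and with an equal sum of named genes (0.315).

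Ago3 (XLOC_019535, mm9 chr4:126009879-126106950) was low, at 2.13 and 2.55 FPKM in shLuci and 2.61 and 2.65 FPKM in shTex10. Its groups stood apart by less than the shLuci replicates did. The log2 change was 0.12 (SE 0.10; adjusted p = 0.357 by limma and Benjamini-Hochberg) and its sign turned under quantile normalization (-0.02). Ago4 (XLOC_019537, mm9 chr4:126166787-126219418) was barely detected, at 0.103 and 0.175 FPKM in shLuci and 0.617 and 0.532 FPKM in shTex10. The groups were apart, shTex10 being the higher, the ratio of means being 4.13, but at this level no depth is known and the value may rest on few reads. With no filter on low values it passed as higher (log2 change 0.47, adjusted p = 0.0307 by limma and Benjamini-Hochberg).

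The make-up of the Argonaute transcripts, which is free of the scaling of a library, shifted from Ago2 towards the others. Ago2 made up 51.0% and 50.2% of the summed FPKM of the 4 genes in shLuci and 38.7% and 37.4% in shTex10. Ago1 made up 43.4% and 42.8% against 49.5% and 50.1%. Ago3 went from 5.35% and 6.63% to 9.58% and 10.4%, and Ago4 from 0.259% and 0.455% to 2.27% and 2.09%. The ratio of Ago2 to Ago1 was 1.18 and 1.17 in shLuci and 0.783 and 0.746 in shTex10, so the order of the 2 genes was turned round in both libraries. The summed FPKM itself was 39.8 and 38.5 in shLuci and 27.2 and 25.5 in shTex10, a sum that does depend on scaling.

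**Figure D2:**
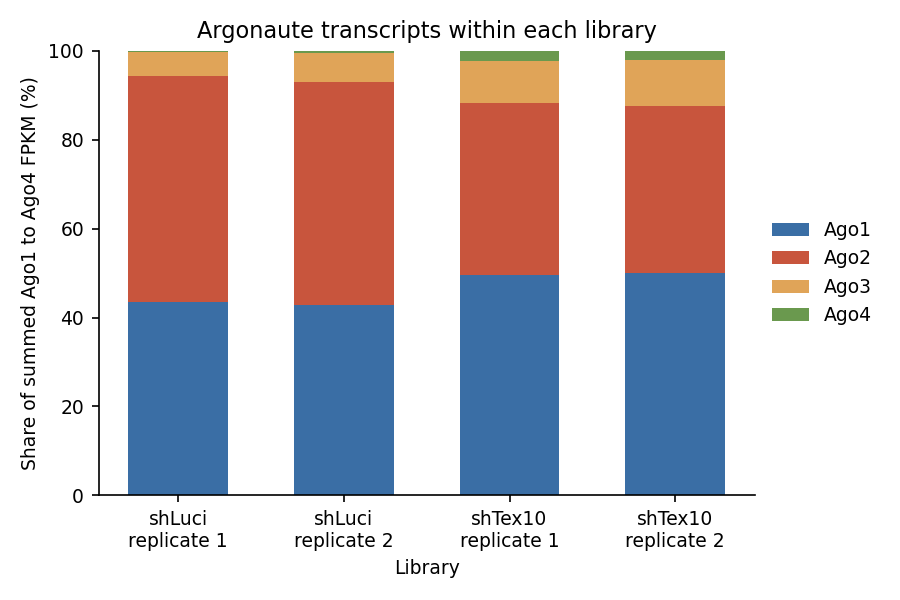
Share of each Argonaute gene (%, stacked to 100) in the summed FPKM of Ago1 to Ago4, 1 bar per library. Ago2 is the largest part in both shLuci bars (51.0% and 50.2%), and Ago1 the largest in both shTex10 bars (49.5% and 50.1%).

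Tnrc6a, the GW182 gene among the 10 (XLOC_024372, mm9 chr7:130267399-130338810), measured 19.3 and 19.9 FPKM in shLuci and 22.3 and 23.2 FPKM in shTex10. Both shTex10 libraries were above both shLuci libraries. The means were 19.6 ± 0.399 and 22.7 ± 0.626 FPKM (SD, n = 2 each), and the log2 change of 0.21 did not pass (SE 0.09; adjusted p = 0.0944 by limma and Benjamini-Hochberg). It passed as higher under quantile normalization (log2 change 0.33, adjusted p = 0.0282 from limma) and with an equal sum of named genes (0.42, adjusted p = 0.0111). Per unit of summed Argonaute FPKM there was 0.484 and 0.516 of Tnrc6a in shLuci and 0.820 and 0.911 in shTex10. The other GW182 genes went opposite ways: Tnrc6b rose from 7.81 and 8.36 to 10.2 and 10.8 FPKM (limma, Benjamini-Hochberg adjusted p = 0.0265), and Tnrc6c fell from 10.1 and 9.07 to 7.33 and 7.24 FPKM (adjusted p = 0.0268 from limma); both were chosen after their values were seen, as relatives of Tnrc6a. The call of Tnrc6b was lost without any 1 of the 4 libraries (adjusted p from 0.0509 to 0.146 by limma), with no filter on low values (0.0588) and with an equal sum of all rows (0.788). That of Tnrc6c was lost in 3 of the 4 fits without 1 library, being kept without shLuci replicate 2, and with no filter (0.0720) and an equal sum of named genes (0.283) or of all rows (0.780).

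**Figure D3:**
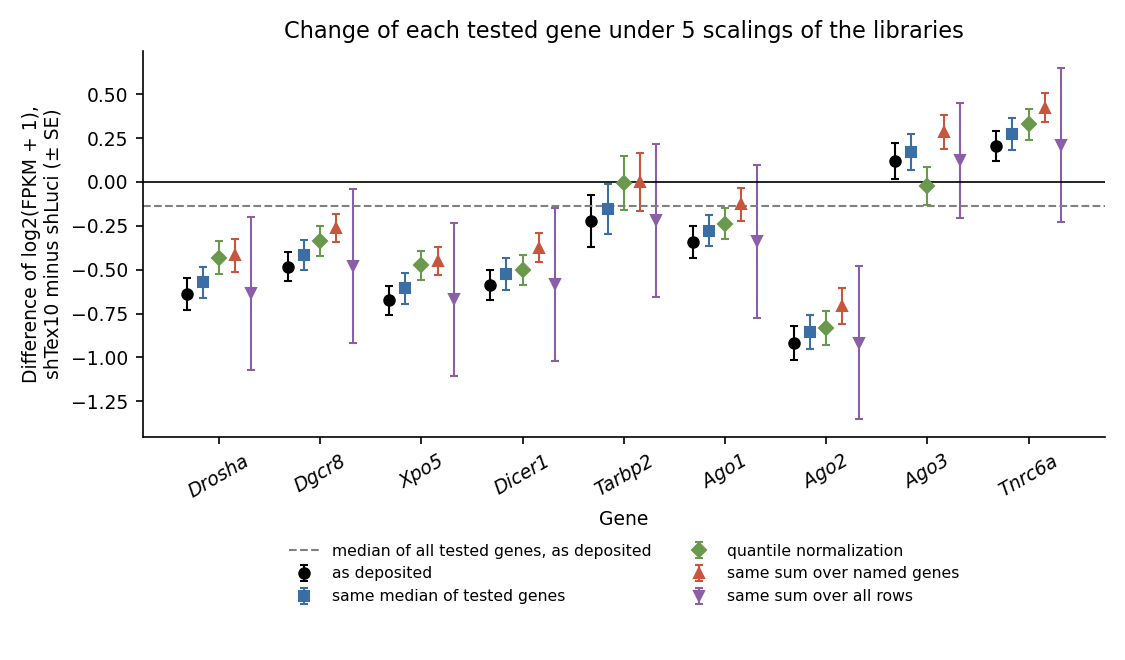
Difference of log2(FPKM + 1), shTex10 minus shLuci, with its SE for the 9 tested genes under 5 scalings of the libraries, with a dashed line at the median of all tested genes as deposited (-0.14). Ago2, Drosha, Dgcr8, Xpo5 and Dicer1 lie below 0 under each scaling, while the equal sum of all rows widens the errors and Tarbp2 and Ago3 reach 0.

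By level, the components spanned a wide range. In shLuci, Drosha, Tarbp2 (51.5 ± 8.23 FPKM) and Xpo5 led. Drosha lay above Xpo5 without overlap, and the range of Tarbp2 overlapped those of both, so that its place among them is not set. Dgcr8 followed, then Ago2 and Tnrc6a, whose ranges overlapped, then Ago1 and Dicer1, whose ranges overlapped as well, and last Ago3 and Ago4. In shTex10, Tarbp2 led (44.0 ± 6.12 FPKM), followed by Drosha, Xpo5, Tnrc6a, Dgcr8 and Ago1 without overlap, then by Dicer1 and Ago2, whose ranges touched. By group mean, Tnrc6a moved from place 6 to place 4 of 10 and Ago2 from place 5 to place 8.

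The changes among the 9 tested components were spread over a range of log2 values from -0.92 to 0.21. Drosha, Xpo5, Dicer1 and Ago2 had at most 14.3% of all tested genes below them, Dgcr8 had 20.3% of genes below it and Ago1 31.3%. Tarbp2 (41.8%) stood close to the middle, and Ago3 (70.4%) and Tnrc6a (74.9%) stood in the upper part. Both shTex10 libraries lay below both shLuci libraries for 6 of the 9 and above them for 2, where 48.1% of all tested genes lay below and 28.3% above.

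The named rows that lie close to a component without overlapping it were read beside it. The row of 6030458C11Rik, which ends 157 bases before that of Drosha begins, fell from 19.0 and 19.0 to 14.1 and 15.2 FPKM (log2 change -0.36, adjusted p = 0.0206 by limma and Benjamini-Hochberg). This call was lost under quantile normalization (0.0781), with an equal sum of named genes (0.236) or of all rows (0.79) and in 3 of the 4 fits without 1 library. Ranbp1, a Ran-binding protein gene whose row lies 188 bases from that of Dgcr8, fell from 439.6 and 503 to 252 and 269 FPKM. Its log2 change was -0.85 (adjusted p = 0.00195 by limma and Benjamini-Hochberg), a call lost with an equal sum of all rows (0.314). Xpo5 has a pair of such neighbours. Yipf3, 34 bases away, rose from 26.0 and 21.8 to 35.0 and 30.4 FPKM (log2 change 0.44, adjusted p = 0.0300 by limma and Benjamini-Hochberg). That call was lost without shLuci replicate 2 (log2 change 0.32) and without shTex10 replicate 1 (0.34). It was also lost with no filter on low values (adjusted p = 0.145 from limma) and with an equal sum of all rows (0.72). Polh, a DNA polymerase gene 130 bases away, did not pass (log2 change -0.10, adjusted p = 0.425 from limma). Npff, a neuropeptide gene 162 bases from Tarbp2, did not pass either (2.07 and 1.95 against 1.64 and 1.52 FPKM, adjusted p = 0.0856 from limma). Npff passed as lower under quantile normalization (log2 change -0.38, adjusted p = 0.0163 from limma) and with the replicate number as a block (0.0345). These 5 neighbours were chosen after their values were seen.

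Other genes of the pathway were described by lists written from general knowledge. Over 7 lists, 115 genes other than the 10 components were tested, of which 58 fell, 14 rose and 43 did not pass, with a median log2 change of -0.33. In shares this was above the 31.8% of all genes for falls and below the 19.8% for rises. The lists were chosen with earlier results of these data known, so this comparison is a description and not a test. With an equal sum of named genes 32 of these genes passed as lower, under quantile normalization 37 and with an equal sum of all rows 6. In the same order, 16.0%, 24.4% and 1.99% of all tested genes passed as lower.

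Among 16 tested partners of nuclear processing and export, 10 fell and 0 rose (0 also at an unadjusted p under 0.05 in limma), with a median of -0.43. Srrt (ARS2), which joins the cap-binding complex to microRNA processing, went from 110.0 and 95.6 to 67.9 and 57.8 FPKM, and Ncbp1, a subunit of that complex, from 53.7 and 56.3 to 37.2 and 36.6 FPKM. Hnrnpa1, which binds certain primary transcripts, went from 901 and 893 to 548 and 586 FPKM. Adar, an RNA editing enzyme that acts on double-stranded RNA, went from 12.1 and 11.9 to 8.41 and 7.92 FPKM. With an equal sum of named genes 6 of the 16 passed as lower, under quantile normalization 4, with 1 higher, with no filter on low values 4 and with an equal sum of all rows 0.

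Among 21 genes for the loading of Argonaute and its cofactors, 13 fell, 1 (Tsnax) rose and 7 did not pass, at a median of -0.56. Mov10, an RNA helicase found with Argonaute, had the largest fall, from 48.7 and 46.5 to 10.3 and 8.49 FPKM (log2 change -2.23, SE 0.11). Fkbp4 and Stip1, co-chaperones of HSP90, fell from 358 and 334 to 137 and 132 FPKM and from 299.6 and 291 to 174 and 164 FPKM. Gemin4 fell from 37.5 and 33.6 to 17.9 and 16.1 FPKM. These genes have other roles besides the loading of Argonaute. With an equal sum of named genes 10 of the 21 passed as lower, and under quantile normalization 9. With no filter on low values it was 8 and with an equal sum of all rows 2. The call of Tsnax was lost without shLuci replicate 2 and without shTex10 replicate 1.

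Downstream of GW182, 16 of 25 genes for its relatives, deadenylation and decay fell, 1 rose and 8 did not pass, at a median of -0.34. Dcp2, the decapping enzyme, went from 33.6 and 35.7 to 9.32 and 10.3 FPKM (log2 change -1.72, SE 0.10). Pabpc1, the poly(A)-binding protein that GW182 contacts, went from 786 and 776 to 462 and 488 FPKM, and Cnot10 and Cnot3, subunits of the CCR4-NOT deadenylase, went from 51.8 and 52.9 to 34.7 and 34.0 FPKM and from 51.2 and 45.0 to 30.4 and 26.0 FPKM. With an equal sum of named genes 5 of the 25 passed as lower, under quantile normalization 9 and with an equal sum of all rows 1. It was 9 without shLuci replicate 2, without shTex10 replicate 1 and with no filter on low values, and 11 without either other library. Edc4 has no row of its own and was not counted.

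Of 11 genes for Lin28, tailing and turnover, 2 fell, 2 rose and 7 did not pass. Of all tested genes 31.8% fell and 19.8% rose, so this list held no excess in either direction. Lin28a and Lin28b, which block the maturation of let-7, fell from 131 and 122 to 77.4 and 78.0 FPKM and from 7.82 and 7.96 to 4.27 and 4.73 FPKM. Zcchc6 (TUT7), a uridyl transferase that acts on let-7 precursors, rose from 8.92 and 10.5 to 13.4 and 14.8 FPKM, and Zswim8, of the ligase that degrades target-bound Argonaute, from 8.48 and 7.64 to 11.9 and 9.71 FPKM. Zcchc6 lost its call without shLuci replicate 1, and Zswim8 without shLuci replicate 2 and without shTex10 replicate 1. The median of this list was -0.13 and turned to 0.09 with an equal sum of named genes, where that of all tested genes was 0.06.

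The PIWI pathway, which guards the germ line with another class of small RNAs, was mostly low: 10 of 16 genes were tested, 1 fell, 2 rose and 7 did not pass. The share that rose was close to the 19.8% of all tested genes, and the share that fell was below their 31.8%. Mov10l1, the germ-cell relative of Mov10, fell from 3.23 and 3.81 to 1.60 and 1.46 FPKM. Tdrd7 and Tdrd5 were higher, from 0.930 and 0.777 to 2.81 and 2.58 FPKM and from 0.722 and 0.794 to 1.24 and 1.38 FPKM, and both reached the filter only through their shTex10 values. Tdrd5 lost its call under quantile normalization (adjusted p = 0.0971 from limma). Mael did not pass (adjusted p = 0.143 from limma).

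Genes described as targets of the seeds shown above were counted in the same way, with no check here that these microRNAs act on them in CCE cells. Of 15 tested genes described for the miR-290 family, 7 rose, 6 fell and 2 did not pass, at a median of 0.23. Dkk1, 1 of the 7, passed the filter by its shTex10 level alone (0.545 and 0.510 against 1.56 and 2.06 FPKM). Cdkn1a, a cell cycle inhibitor, rose from 39.1 and 32.9 to 116 and 107 FPKM, Lats2, a Hippo kinase, from 2.92 and 2.72 to 7.71 and 7.73 FPKM, and Rbl2, a relative of the retinoblastoma gene, from 5.53 and 5.72 to 9.92 and 10.3 FPKM. Lefty2, a Nodal antagonist, fell from 257 and 238 to 78.7 and 71.8 FPKM. Cdkn1a is also known as a target of p53. With an equal sum of named genes 8 of the 15 passed as higher and 1 as lower, under quantile normalization 7 and 3, and with an equal sum of all rows 3 and 1.

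Of 20 genes described for let-7, 13 fell, 1 (Ccnd2) rose and 6 did not pass, at a median of -0.52. Igf2bp2, an RNA-binding protein gene, fell from 35.2 and 37.0 to 9.48 and 9.43 FPKM, and Hmga1, a chromatin protein gene, from 773 and 657 to 262 and 217 FPKM. Cdc25a and Ccnd1, which drive the cell cycle, fell from 31.2 and 33.1 to 15.2 and 14.8 FPKM and from 63.0 and 56.3 to 28.0 and 27.0 FPKM. Lin28a and Lin28b, counted in the Lin28 list above, belong to this list too, as does Trim71, counted as lower among the Argonaute cofactors. With an equal sum of named genes 9 of the 20 passed as lower, and under quantile normalization 10. With an equal sum of all rows it was 2.

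**Figure D4:**
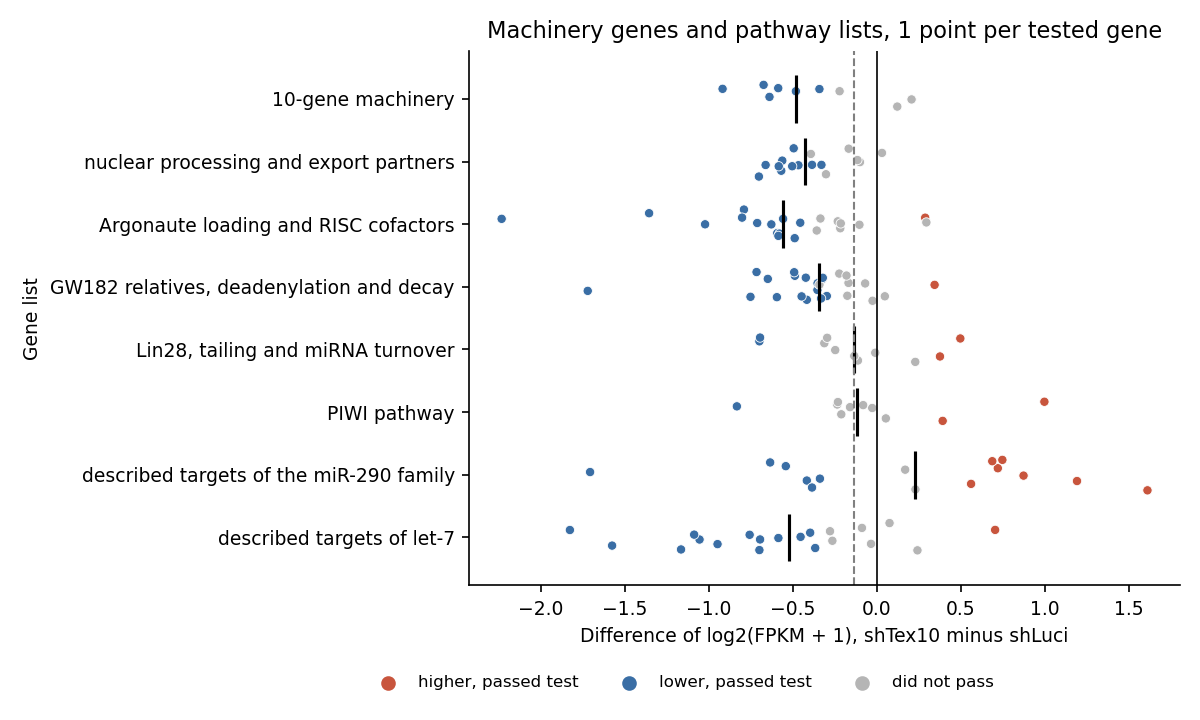
Difference of log2(FPKM + 1), shTex10 minus shLuci, with 1 point per tested gene in each list, black lines at list medians and a dashed line at the median of all tested genes (-0.14). The 10-gene machinery (9 tested, median -0.48) and the 3 lists below it lie mostly to the left, and the described targets of the miR-290 family (median 0.23) lie on both sides.

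The transcript that carries the miR-290 family, on a row that names D7Ertd143e and Mir290 together, measured 29.4 and 29.0 FPKM in shLuci and 23.9 and 27.1 FPKM in shTex10. It did not pass (log2 change -0.19, adjusted p = 0.151 by limma and Benjamini-Hochberg). The row of the miR-302 cluster was at 0.150 and 0.235 against 0.588 and 1.04 FPKM. Another host transcript, on a row that names Mir17hg with Mir19a, Mir19b-1 and Mir20a, fell from 42.2 and 47.7 to 18.1 and 21.9 FPKM. Its log2 change was -1.13 (adjusted p = 0.00146 by limma and Benjamini-Hochberg). All of these rows were chosen after their values were seen, and none measures the mature microRNA, which poly(A) selection leaves out.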

How the data were processed

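Poly(A) RNA of 4 libraries (2 per group) was read as 100-bp single ends, per the labels' protocols. The deposited unit is FPKM, which the authors gave for each library on its own. Build mm9 and the tools Cufflinks 2.1.1, Bowtie2 2.1.0 and TopHat2 2.0.10 appear in the submitters' processing notes; options, annotation and strand use: not given in the sources used here. FPKM keeps no counts, so depth is unknown, and a few abundant features can shift all other values. Unnamed rows, between 56.3% and 71.6% of summed FPKM, were left out. Locus starts were read as 0-based and are printed 1-based, since end minus start equalled the RefSeq gene length for 6359 of 21150 matched names, and that length less 1 for 365.

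Rows sharing a name were summed. A filter at a mean FPKM of 1 left 11883 genes, tested as log2(FPKM + 1) in limma 3.58.1 under R 4.3.3 (eBayes with trend, unblocked, Benjamini-Hochberg threshold 0.05). The samples are labelled biological replicates with no word on separate cultures, so the spread behind each p may be technical. The alternatives were 2 pseudocounts, 2 filters, 4 scalings, 2 eBayes options, a replicate block, the highest row per name and leaving out each library.

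The members and gene lists were chosen with earlier results of these data known. Named besides the members were Tex10, the 4 genes with the smallest p in each pathway list, and rows overlapping a member; exceptions are stated where they occur. Sequences come from the RefSeq tables.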

Additional observations from a re-analysis of the deposited data

How the results depend on the processing

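Of the 16 alternatives, setting libraries to an equal sum of all rows had the largest effect: it left 0 of the 10 components called, 892 genes in all (655 higher, 237 lower) and 10 other pathway genes (4 higher, 6 lower), with log2 changes of the components close to those as deposited but SEs of 0.436 to 0.437 for 8 of them and 0.328 for Ago3. Unnamed rows, which differ most between the shLuci libraries, enter that sum. All genes called lower numbered 5709 with the replicate block, 2378 of all 22739 with no filter on low values and 1906 with an equal sum of named genes. Those called higher numbered 1292 with a mean FPKM of at least 5. Pathway genes called lower numbered 36 with no filter, 37 under quantile normalization and 32 with an equal sum of named genes. The median log2 change of the components was -0.41 with no filter, -0.53 with a mean FPKM of at least 5, -0.42 with median scaling, -0.34 under quantile normalization and -0.26 with an equal sum of named genes. The median over all genes moved too. In the same order it was 0.0, -0.199, -0.075, -0.074 and 0.063, against -0.136 as deposited. Without 1 library, the median log2 change of the components ran from -0.49 to -0.47 over the 4 fits, where that of all genes ran from -0.14 to -0.13. Tarbp2 turned to 0.001 with an equal sum of named genes, and Ago3 to -0.023 under quantile normalization. Apart from the stated scaling over all rows, the calls of Drosha, Dgcr8, Xpo5, Dicer1 and Ago2 held in the other 15 alternatives. That of Dgcr8 only just held with an equal sum of named genes (log2 change -0.26, adjusted p = 0.0499 from limma). Of 30 other named genes called as deposited, 10 stayed called with an equal sum of all rows. With no filter Cnot3, Srrt, Trmt2a, Zcchc6 and Zswim8 lost their calls. The 2 filters left the log2 change of each component as it was and altered only which were tested. Ago4 (0.47) entered with no filter and Ago3 (0.12) left with a mean FPKM of at least 5, which moved the median. The cause of the other shifts was not tested.

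The labels number the replicates, with no statement that equal numbers share a culture or day, and 2 pairs are too few to show pairing from the data (correlation of same-numbered deviations 0.331 across 11883 genes). With the replicate number as a block, 8 components passed, Tarbp2 (log2 change -0.22, adjusted p = 0.00256 from limma) and Tnrc6a (0.21, adjusted p = 0.00506) being added. Of all 11883 tested genes, 6129 passed without the block and 8919 with it (5709 lower, 3210 higher). In that fit the list of Lin28, tailing and turnover had 7 genes lower and 3 higher of 11, and the PIWI list 4 lower and 2 higher of 10, Mael among those lower (adjusted p = 0.0157 from limma).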
